A study of Mus musculus with 26 samples.

Results

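Endothelial cells line the blood vessels of the lung, and 10 genes that mark them were followed here: Pecam1, Cdh5, Kdr, Flt1, Tek, Tie1, Eng, Vwf, Cldn5 and Ramp2. The genes were chosen by name as endothelial markers, with earlier results of these data known. They are 10 of the 12394 genes measured, each read from its probe set of highest mean. Whole left lungs of male mice aged 6 to 8 weeks were profiled on Affymetrix GeneChip arrays of the mouse. Il10-/- mice (B6.129P2-Il10tmlCgn/J), which lack the anti-inflammatory cytokine interleukin-10 in every cell, were set against Il10+/+ mice (C57BL/6). O3 at 0.3 ppm, or filtered air, was breathed for 23.5 hr per day by mice of both genotypes. In each genotype, filtered air was given for 24 or 48 hr (4 arrays in all, pooled here) and O3 for 24, 48 or 72 hr (3 arrays each), with no air array at 72 hr. A single O3 array at 24 hr in Il10-/- mice was left out, so 2 remained there and 25 of 26 arrays entered every comparison. The labels name separate samples but not whether each is 1 mouse, so p-values measure the spread between these samples.

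The vessel wall is a single sheet of endothelial cells held together by adherens and tight junctions, which set how much fluid and protein leaves the blood. Cdh5 encodes VE-cadherin, the adhesion protein of the adherens junction. Pecam1 encodes CD31, an adhesion protein at the cell borders through which leukocytes also pass, and Cldn5 encodes claudin-5, the main tight junction claudin of endothelium. Growth and survival signals reach the sheet through the VEGF receptors Kdr (VEGFR2) and Flt1 (VEGFR1, which also binds placental growth factor), and through Tek (TIE2), the receptor for angiopoietins, with its partner Tie1. Eng is a coreceptor for bone morphogenetic proteins, Vwf encodes the von Willebrand factor that tethers platelets, and Ramp2 makes the calcitonin receptor-like receptor respond to adrenomedullin. The lung holds one of the densest capillary beds of the body, directly under the alveolar surface on which inhaled O3, an oxidant gas, acts.

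Values are log2 expression as deposited, so differences are log2 ratios, and probe sets of different genes cannot be ranked by them. Gene positions are those of GRCm38.p6. The array medians lay between 6.54 and 6.68. The left-out array correlated with the other arrays at r = 0.847 to 0.879, whereas the lowest r among the 25 was 0.965. Lung identity was clear on all 25 arrays, with the mean of 8 alveolar type 1 markers between 11.55 and 12.002. The Il10 probe set read 3.92 to 4.25 in Il10+/+ mice and 6.29 to 7.71 in Il10-/- mice, with 1 exception, the library labelled Il10-/- air 48 hr replicate 1, at 3.87. Whether this probe set lies inside the deleted stretch is not given in the sources used here, so it does not check the genotype. Counts of members called in Il10-/- mice are also given without that library. Other results that rest on it, such as those of the gene lists, include it unless each array was left out in turn.

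Expression of the endothelial genes was lower after O3 than in air for most members and times, and the size was modest. Over the 3 O3 times in Il10-/- mice, 3 of the 10 (Pecam1, Tie1 and Cldn5) fell at an adjusted p under 0.05 in limma, against 2.28% of all genes that fell and 5.27% that rose. There 9 of the members had a negative difference, with a median of -0.28 beside -0.01 over all genes. In Il10+/+ mice none of the 10 passed the threshold over the 3 times, where 0.92% of all genes fell and 2.74% rose. In these mice too 9 members were negative, 5 of them had an unadjusted p under 0.05, and the median was -0.17 beside -0.01 over all genes. The shares of all genes under an unadjusted p of 0.05 are not given here. Counts by unadjusted p, here and below, are therefore a description only and not a result about the members or lists. With the genotypes averaged, 5 of 10 fell (Pecam1, Kdr, Tek, Tie1 and Cldn5), against 5.72% of all genes, with a median of -0.24. No member rose in any comparison. With the left-out array put back, 0 of the 10 were called in any comparison, and the median over the 3 times in Il10-/- mice was -0.60.

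By time, the differences were small at 24 hr and larger at 48 and 72 hr. At 24 hr no member was called in Il10-/- mice, where 0.766% of all genes fell and 1 member had an unadjusted p under 0.05. At 48 hr 3 of 10 fell in Il10-/- mice (Pecam1, Tie1 and Cldn5, against 2.29% of all genes), and at 72 hr 2 of 10 fell (Pecam1 and Tie1, against 1.62%). The members' medians in Il10-/- mice were -0.17 at 24 hr, -0.35 at 48 hr and -0.34 at 72 hr. In Il10+/+ mice no member was called at 24 hr (0% of all genes), at 48 hr (1% of all genes) or at 72 hr (0.686% of all genes), with 0, 2 and 5 members under an unadjusted p of 0.05. The medians in Il10+/+ mice were -0.02 at 24 hr, -0.24 at 48 hr and -0.29 at 72 hr. Once the library labelled Il10-/- air 48 hr replicate 1 was left out, counts in Il10-/- mice were 3 at 48 hr, 1 at 72 hr and 2 over the 3 times. The arrays hold whole lung, in which fewer endothelial cells and less RNA per endothelial cell cannot be told apart.

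**Figure D1:**
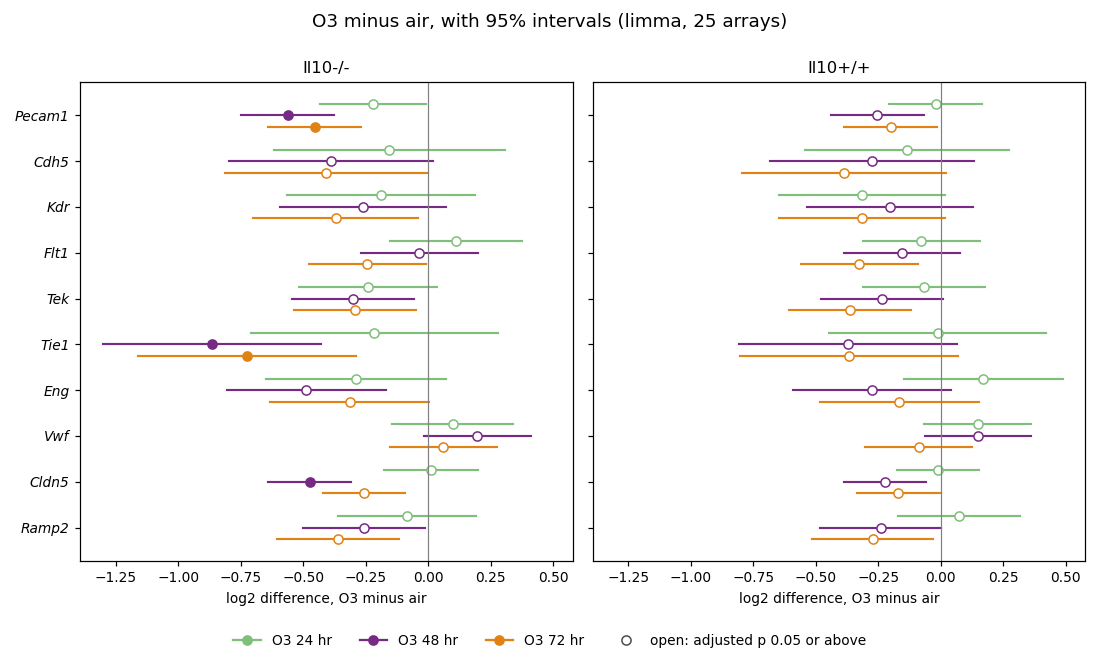
Log2 difference of O3 minus air for each of the 10 genes at 24, 48 and 72 hr, in Il10-/- mice (left) and Il10+/+ mice (right). Points are limma estimates, lines their 95% confidence intervals, filled points passed an adjusted p of 0.05 and open points did not. The filled points are Pecam1, Tie1 and Cldn5 at 48 hr and Pecam1 and Tie1 at 72 hr, all in Il10-/- mice, and Vwf alone sits above 0 at 48 hr in both panels.

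Of the junction genes, Pecam1 (chr11:106654213-106715281) was lower on every O3 array of Il10-/- mice. Pecam1 in Il10-/- lungs read 11.38, 11.38, 11.27 and 11.22 in air, 11.15 and 11.03 after 24 hr of O3, 10.73, 10.70 and 10.81 after 48 hr, and 10.89, 10.76 and 10.92 after 72 hr. Pecam1 in Il10+/+ lungs read 11.10, 11.15, 10.89 and 11.22 in air, 10.996, 10.98 and 11.23 after 24 hr of O3, 10.87, 10.95 and 10.69 after 48 hr, and 10.82, 10.93 and 10.92 after 72 hr. The highest O3 array of Il10-/- mice lay below the lowest air array of that genotype, whereas in Il10+/+ mice the O3 and air arrays overlapped at each time. In Il10-/- mice Pecam1 fell by 0.56 on the log2 scale at 48 hr (SE 0.089, adjusted p = 0.00031), to 0.677 of its air level, and by 0.45 at 72 hr (SE 0.089, adjusted p = 0.00334). Its 24 hr difference in Il10-/- mice was -0.22 (SE 0.10, adjusted p = 0.272). In Il10+/+ mice the Pecam1 difference was -0.25 at 48 hr (SE 0.089, adjusted p = 0.136) and -0.16 over the 3 times (SE 0.070, adjusted p = 0.258). Leaving out any 1 of the 25 arrays kept Pecam1 lower at 48 hr, at 72 hr and over the 3 times in Il10-/- mice. With air of the same exposure time as the reference (48 hr air for 72 hr O3), the 72 hr value was -0.39 and was no longer called (adjusted p = 0.0611).

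Cldn5 (chr16:18776847-18778262) was at its air level at 24 hr and lower at 48 hr. Cldn5 in Il10-/- lungs read 12.27, 12.35, 12.25 and 12.33 in air, 12.26 and 12.36 after 24 hr of O3, 11.90, 11.81 and 11.77 after 48 hr, and 12.14, 11.95 and 12.05 after 72 hr. Cldn5 in Il10+/+ lungs read 12.10, 12.22, 12.34 and 12.23 in air, 12.14, 12.11 and 12.39 after 24 hr of O3, 11.94, 12.02 and 12.04 after 48 hr, and 12.04, 12.02 and 12.11 after 72 hr. The 24 hr arrays of Il10-/- mice lay at the level of the air arrays, all 3 arrays at 48 hr lay below every air array and below every 72 hr array, and at 72 hr the arrays were still below air. Cldn5 fell in Il10-/- mice by 0.47 at 48 hr (SE 0.079, adjusted p = 0.000528), and its difference at 72 hr was -0.26 (SE 0.079, adjusted p = 0.0602). Over the 3 times it fell by 0.24 in Il10-/- mice (SE 0.064, adjusted p = 0.0239), a call lost without Il10-/- air 24 hr replicate 1 (adjusted p = 0.0513), air 24 hr replicate 2 (0.0703) or air 48 hr replicate 2 (0.0622). In Il10+/+ mice the 48 hr arrays of Cldn5 also lay below all air arrays, with a difference of -0.22 (SE 0.079, adjusted p = 0.139).

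**Figure D2:**
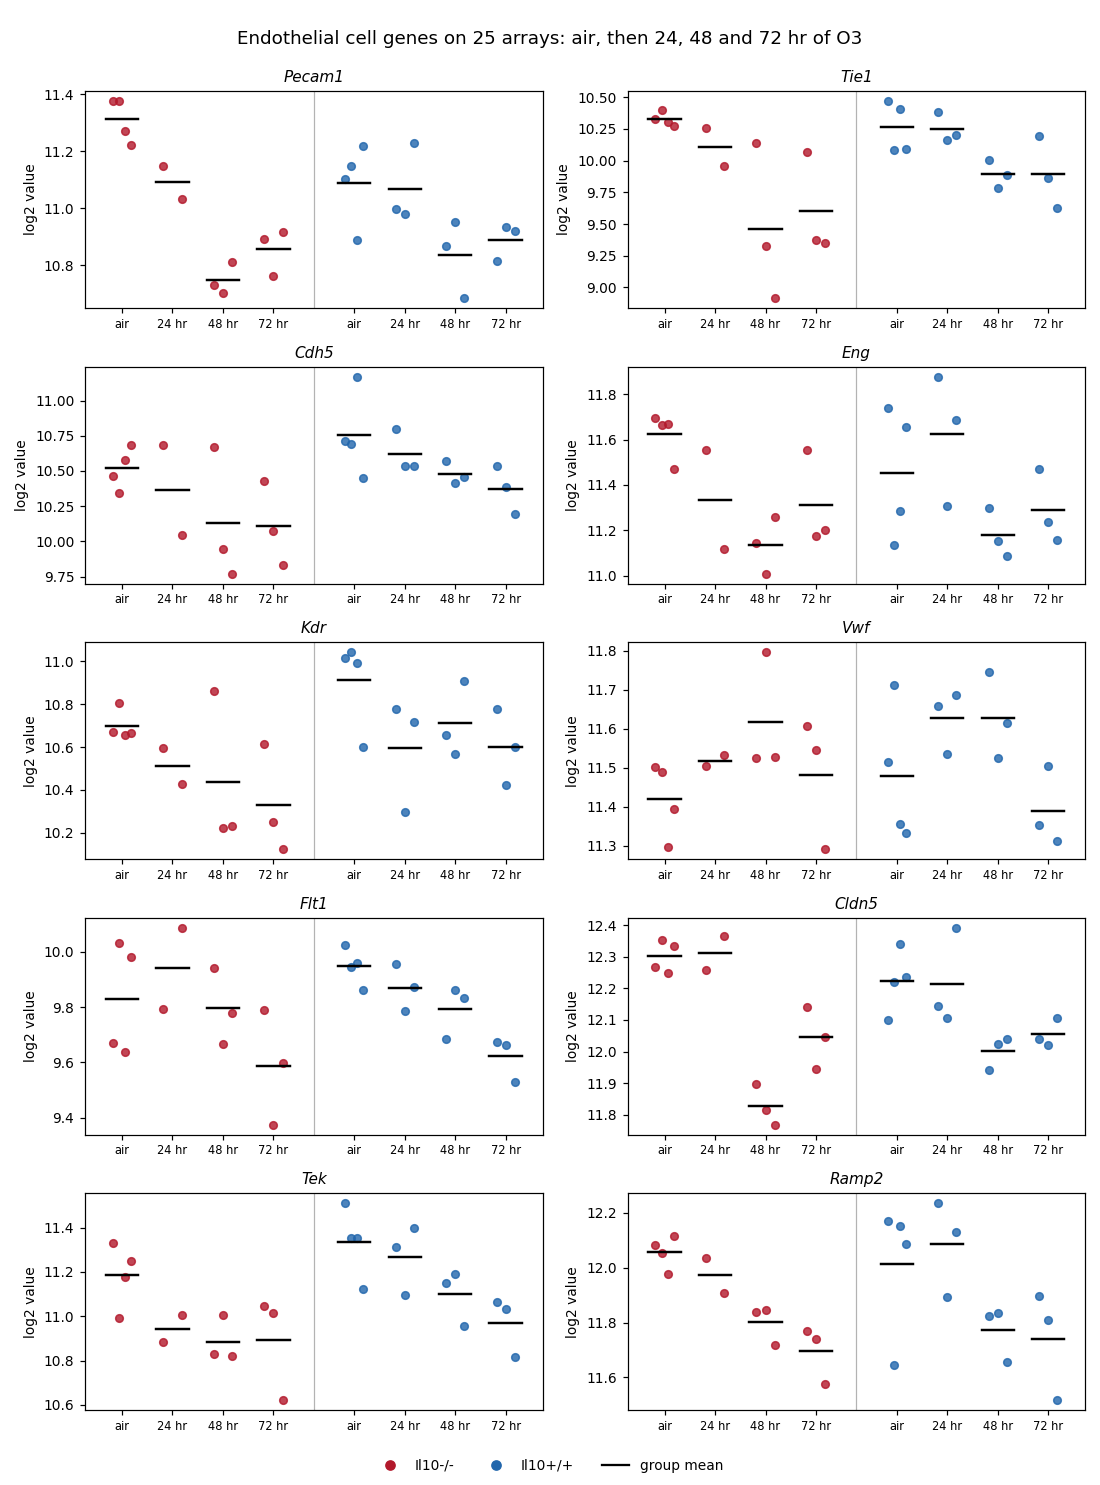
Log2 expression of each of the 10 genes on each of the 25 arrays, 1 panel per gene, by exposure (air, then O3 at 24, 48 and 72 hr), with Il10-/- mice in red on the left and Il10+/+ mice in blue on the right of each panel. Each point is 1 array and each black bar a group mean. For Pecam1 and Tie1 all O3 points of Il10-/- mice lie below that genotype's air points, and for Vwf the Il10-/- points at 24 and 48 hr lie above them.

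Cdh5 (chr8:104101613-104144504), the adherens junction gene, was read by 2 probe sets that differed in their response. Cdh5 in Il10-/- lungs read 10.47, 10.34, 10.58 and 10.69 in air, 10.68 and 10.04 after 24 hr of O3, 10.67, 9.95 and 9.77 after 48 hr, and 10.43, 10.07 and 9.83 after 72 hr. Cdh5 in Il10+/+ lungs read 10.71, 10.69, 11.17 and 10.45 in air, 10.80, 10.53 and 10.54 after 24 hr of O3, 10.57, 10.41 and 10.45 after 48 hr, and 10.53, 10.38 and 10.19 after 72 hr. At 48 and 72 hr in Il10-/- mice the arrays split, with replicate 1 inside the air range and the other arrays below it. The difference in Il10-/- mice was -0.39 at 48 hr (SE 0.20, adjusted p = 0.289) and -0.32 over the 3 times (SE 0.16, adjusted p = 0.257). It was -0.27 over the 3 times in Il10+/+ mice (SE 0.15, adjusted p = 0.425). These values come from the brighter probe set, 1433956_at.

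The dimmer Cdh5 probe set, 1422047_at, gave larger differences with more spread. It averaged, in Il10-/- mice, 7.499 ± 0.60 in air (SD, n = 4), 6.95 ± 0.05 at 24 hr of O3 (n = 2), 6.34 ± 0.21 at 48 hr and 6.58 ± 0.54 at 72 hr (n = 3 each). Its averages in Il10+/+ mice were 7.10 ± 0.46 in air (SD, n = 4), 7.13 ± 0.65 at 24 hr, 6.41 ± 0.53 at 48 hr and 6.76 ± 0.54 at 72 hr (n = 3 each). Tested in place of the brighter set, its difference at 48 hr in Il10-/- mice was -1.16 (SE 0.35, adjusted p = 0.0666) and over the 3 times -0.87 (SE 0.29, adjusted p = 0.0791). With the mean of both probe sets Cdh5 fell by 0.77 at 48 hr in Il10-/- mice (SE 0.21, adjusted p = 0.0268) and by 0.60 over the 3 times (SE 0.17, adjusted p = 0.03). Whether Cdh5 is called therefore depends on how its probe sets are joined, and across the 25 arrays the 2 sets correlated at r = 0.31.

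**Figure D3:**
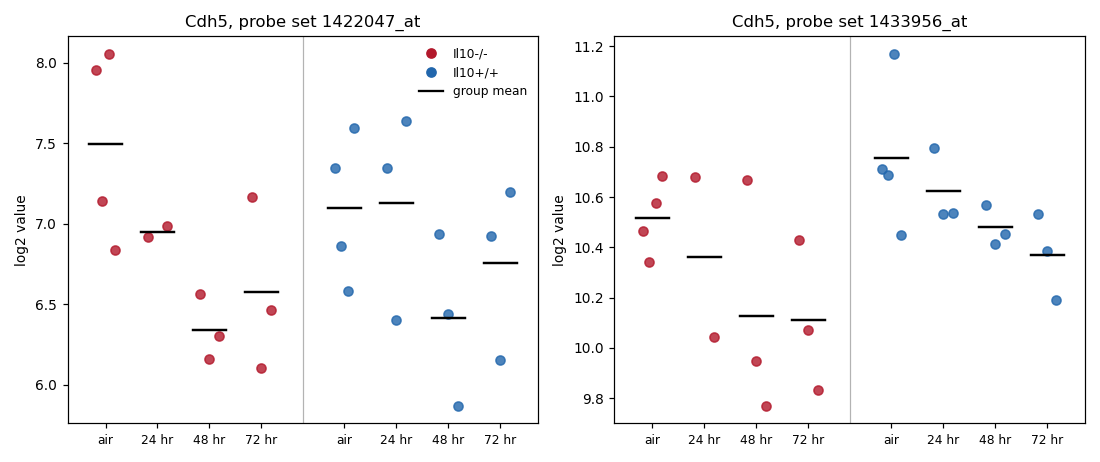
Log2 signal of the 2 Cdh5 probe sets on each of the 25 arrays, 1 panel per probe set, by exposure (air, then O3 at 24, 48 and 72 hr), with Il10-/- mice in red on the left and Il10+/+ mice in blue on the right. Points are arrays and bars group means. On 1422047_at the Il10-/- mean was 6.34 at 48 hr of O3 and 7.499 in air, a wider step than on 1433956_at.

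Tie1 (chr4:118471191-118489849), the orphan partner of the angiopoietin receptor, had the largest differences and the widest spread of the 10 in Il10-/- mice at 48 and 72 hr. Tie1 in Il10-/- lungs read 10.33, 10.40, 10.31 and 10.27 in air, 10.26 and 9.96 after 24 hr of O3, 10.13, 9.32 and 8.92 after 48 hr, and 10.07, 9.38 and 9.35 after 72 hr. Tie1 in Il10+/+ lungs read 10.47, 10.08, 10.40 and 10.09 in air, 10.38, 10.16 and 10.20 after 24 hr of O3, 10.01, 9.78 and 9.89 after 48 hr, and 10.19, 9.86 and 9.63 after 72 hr. Every O3 array of Il10-/- mice lay below every air array of the genotype, by a small margin for O3 24 hr replicate 1 and by over 1 log2 unit for O3 48 hr replicate 3. Tie1 fell in Il10-/- mice by 0.87 at 48 hr (SE 0.21, adjusted p = 0.0133) and by 0.73 at 72 hr (SE 0.21, adjusted p = 0.0435). In Il10+/+ mice its difference was -0.37 at 48 hr (SE 0.21, adjusted p = 0.405) and -0.25 over the 3 times (adjusted p = 0.497), and all 48 hr arrays lay below the air arrays.

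The Tie1 calls in Il10-/- mice rest on few arrays. At 48 hr the call was lost without O3 48 hr replicate 2 (-0.80, adjusted p = 0.0782) or replicate 3 (-0.60, adjusted p = 0.122), and without replicate 1 the difference was -1.20. At 72 hr the call was lost in 14 of the 25 sets with 1 array left out, with an adjusted p of up to 0.228 without O3 72 hr replicate 3. Over the 3 times Tie1 fell by 0.60 (SE 0.17, adjusted p = 0.032), and the call was lost in 7 of 25 sets. The 7 are those without any 1 of the 4 air arrays, replicate 2 of O3 48 hr, or replicate 2 or 3 of O3 72 hr, all of Il10-/- mice, with an adjusted p of up to 0.0827. With air of the same exposure time the Tie1 difference in Il10-/- mice was -0.83 at 48 hr (adjusted p = 0.101) and -0.69 at 72 hr (adjusted p = 0.197). Averaged over both genotypes, Tie1 fell by 0.43 (SE 0.12, adjusted p = 0.0174), and all 25 sets kept that call.

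Tek (chr4:94739086-94874976), the angiopoietin receptor, had smaller differences that were alike in size in both genotypes. Tek in Il10-/- lungs read 11.33, 10.99, 11.18 and 11.25 in air, 10.89 and 11.004 after 24 hr of O3, 10.83, 11.004 and 10.82 after 48 hr, and 11.05, 11.02 and 10.62 after 72 hr. Tek in Il10+/+ lungs read 11.51, 11.35, 11.35 and 11.12 in air, 11.31, 11.10 and 11.40 after 24 hr of O3, 11.15, 11.19 and 10.96 after 48 hr, and 11.06, 11.03 and 10.82 after 72 hr. All 72 hr arrays of Il10+/+ mice lay below the air arrays, and elsewhere O3 and air overlapped, through the low air value of 10.99 in Il10-/- mice. The difference over the 3 times was -0.28 in Il10-/- mice (SE 0.094, adjusted p = 0.0765) and -0.22 in Il10+/+ mice (SE 0.092, adjusted p = 0.214). With the genotypes averaged Tek fell by 0.25 (SE 0.066, adjusted p = 0.0128), with every set of 24 arrays keeping the call.

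Of 7 measured angiopoietins and other regulators of these receptors, none was called in Il10-/- mice over the 3 O3 times (1 had an unadjusted p under 0.05), and 1 fell in Il10+/+ mice. That gene was Angpt2, which encodes the angiopoietin that endothelial cells store and release. It fell by 0.50 in Il10+/+ mice (SE 0.13, adjusted p = 0.0323), and its difference in Il10-/- mice was -0.36 (adjusted p = 0.102). The medians of the 7 were -0.18 in Il10-/- mice and -0.10 in Il10+/+ mice.

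The promoters of Tie1, Tek and Cldn5 are shown because these are the members that kept their call over both genotypes with any 1 array left out and that have an entry in the RefSeq promoter table used here (GRCm38.p6), which holds 6 of the 10. Each runs from 250 bases before to 50 after a transcript start, 5′ to 3′ on the gene's strand. Tie1 lies at chr4:118489800-118490099 on the minus strand, Tek at chr4:94739039-94739338 on the plus strand and Cldn5 at chr16:18776597-18776896 on the plus strand. Capitals mark the letters AGGAAG and CGGAAG, cores of sites for ETS factors, and AGATAA, the core of GATA factor sites, on either strand. ETS and GATA factors are known regulators of endothelial genes.
Tie1: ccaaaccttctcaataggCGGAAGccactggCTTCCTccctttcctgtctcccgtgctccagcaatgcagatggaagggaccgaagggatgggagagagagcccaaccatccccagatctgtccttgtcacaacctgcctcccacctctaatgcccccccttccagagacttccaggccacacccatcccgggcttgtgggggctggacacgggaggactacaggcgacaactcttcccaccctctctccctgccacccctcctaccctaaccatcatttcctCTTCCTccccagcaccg
Tek: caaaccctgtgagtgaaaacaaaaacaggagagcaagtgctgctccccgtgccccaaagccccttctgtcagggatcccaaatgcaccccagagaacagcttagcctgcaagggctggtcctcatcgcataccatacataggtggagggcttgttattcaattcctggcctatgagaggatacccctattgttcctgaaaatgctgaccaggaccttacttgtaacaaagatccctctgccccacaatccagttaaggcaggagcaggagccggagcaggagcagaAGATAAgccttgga
Cldn5: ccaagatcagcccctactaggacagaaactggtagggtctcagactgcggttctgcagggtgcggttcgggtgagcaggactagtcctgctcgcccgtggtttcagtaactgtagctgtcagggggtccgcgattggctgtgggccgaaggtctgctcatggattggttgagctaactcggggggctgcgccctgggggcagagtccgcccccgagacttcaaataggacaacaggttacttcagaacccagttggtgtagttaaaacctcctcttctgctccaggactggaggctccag
In the Tie1 window AGGAAG occurred 2 times, both on the opposite strand, and CGGAAG 1 time. The Tek window held AGATAA 1 time, after the start, and the Cldn5 window held none of these letters. Of the other 3 members in the table, Eng and Flt1 held AGGAAG 2 times each and Kdr held none. Over all 32851 promoters of this length, 46.5% held AGGAAG or CGGAAG on either strand and 11.2% held AGATAA, so 3 of 6 and 1 of 6 members are a description only. AGGAAG and CGGAAG cannot match at the same position.

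Kdr (chr5:75932827-75979072), the main signaling receptor for VEGF-A in endothelium, was lower after O3 by a like amount in both genotypes. Kdr in Il10-/- lungs read 10.67, 10.80, 10.66 and 10.67 in air, 10.59 and 10.43 after 24 hr of O3, 10.86, 10.22 and 10.23 after 48 hr, and 10.61, 10.25 and 10.12 after 72 hr. Kdr in Il10+/+ lungs read 11.02, 11.04, 10.99 and 10.60 in air, 10.78, 10.30 and 10.72 after 24 hr of O3, 10.66, 10.57 and 10.91 after 48 hr, and 10.78, 10.42 and 10.60 after 72 hr. The 24 and 72 hr arrays of Il10-/- mice lay below all air arrays of the genotype, while O3 48 hr replicate 1 had the highest value of its genotype. The difference over the 3 times was -0.27 in Il10-/- mice (SE 0.13, adjusted p = 0.224) and -0.28 in Il10+/+ mice (SE 0.13, adjusted p = 0.266). Averaged over both genotypes Kdr fell by 0.28 (SE 0.090, adjusted p = 0.043), and that call was lost in 16 of the 25 sets with 1 array left out (adjusted p from 0.0091 to 0.0942).

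Flt1 (chr5:147561604-147726438), the other VEGF receptor, was called at no time, and on its brightest probe set the lowest group means were those at 72 hr. Flt1 in Il10-/- lungs read 9.67, 10.03, 9.64 and 9.98 in air, 9.79 and 10.09 after 24 hr of O3, 9.94, 9.67 and 9.78 after 48 hr, and 9.79, 9.37 and 9.60 after 72 hr. Flt1 in Il10+/+ lungs read 10.02, 9.95, 9.96 and 9.86 in air, 9.96, 9.78 and 9.87 after 24 hr of O3, 9.68, 9.86 and 9.83 after 48 hr, and 9.67, 9.66 and 9.53 after 72 hr. The 48 and 72 hr arrays of Il10+/+ mice lay below all air arrays, by a very small margin at 48 hr. In Il10-/- mice O3 and air overlapped at every time. At 72 hr the difference was -0.24 in Il10-/- mice (SE 0.11, adjusted p = 0.223) and -0.32 in Il10+/+ mice (SE 0.11, adjusted p = 0.136). Of 8 measured VEGF ligands and coreceptors, 1 was called, in Il10-/- mice over the 3 times, while none was called in Il10+/+ mice (2 had an unadjusted p under 0.05). Pgf, the placental growth factor that binds Flt1, rose by 0.49 in Il10-/- mice (SE 0.14, adjusted p = 0.0377) with a difference of 0.22 in Il10+/+ mice. Vegfa, the ligand of both receptors, differed by -0.17 in Il10-/- mice (adjusted p = 0.214) and by -0.13 in Il10+/+ mice (adjusted p = 0.429). The medians of the 8 were -0.21 in Il10-/- mice and -0.17 in Il10+/+ mice.

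Eng (chr2:32646595-32682669), the endoglin coreceptor, was lowest at 48 hr in both genotypes on its brighter probe set, without passing the threshold. Eng in Il10-/- lungs read 11.70, 11.66, 11.67 and 11.47 in air, 11.55 and 11.12 after 24 hr of O3, 11.15, 11.01 and 11.26 after 48 hr, and 11.56, 11.18 and 11.20 after 72 hr. Eng in Il10+/+ lungs read 11.74, 11.13, 11.29 and 11.65 in air, 11.88, 11.31 and 11.69 after 24 hr of O3, 11.30, 11.15 and 11.09 after 48 hr, and 11.47, 11.24 and 11.16 after 72 hr. All 48 hr arrays of Il10-/- mice lay below the air arrays, and in Il10+/+ mice a wide spread in air (11.13 to 11.74) overlapped with O3 at every time. The difference was -0.49 at 48 hr in Il10-/- mice (SE 0.15, adjusted p = 0.0611) and -0.27 at 48 hr in Il10+/+ mice. Of 16 measured genes of endoglin and BMP signaling, 2 fell over the 3 times in Il10-/- mice and 1 in Il10+/+ mice, with medians of -0.11 and -0.02 beside -0.01 and -0.01 over all genes in those mice. Acvrl1, the ALK1 receptor with which endoglin acts, fell by 0.43 in Il10-/- mice (SE 0.13, adjusted p = 0.0414), and its difference in Il10+/+ mice was -0.10. Bmp6, a ligand, fell by 0.41 in Il10-/- mice (SE 0.093, adjusted p = 0.00861), and in Il10+/+ mice its difference was -0.32 (adjusted p = 0.0558). Smad4, the shared signal carrier, fell by 0.35 in Il10+/+ mice (SE 0.095, adjusted p = 0.0393), with a difference of -0.08 in Il10-/- mice.

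Ramp2 (chr11:101246334-101248250), the partner of the adrenomedullin receptor, had lower group means at 48 and 72 hr in both genotypes on the probe set used. Ramp2 in Il10-/- lungs read 12.08, 12.05, 11.98 and 12.12 in air, 12.03 and 11.91 after 24 hr of O3, 11.84, 11.84 and 11.72 after 48 hr, and 11.77, 11.74 and 11.58 after 72 hr. Ramp2 in Il10+/+ lungs read 12.17, 11.64, 12.15 and 12.08 in air, 12.23, 11.89 and 12.13 after 24 hr of O3, 11.83, 11.83 and 11.66 after 48 hr, and 11.90, 11.81 and 11.52 after 72 hr. All 48 and 72 hr arrays of Il10-/- mice lay below the air arrays, while in Il10+/+ mice the air array of 11.64, at 24 hr replicate 2, overlapped with O3. The difference at 72 hr was -0.36 in Il10-/- mice (SE 0.12, adjusted p = 0.0725) and -0.27 in Il10+/+ mice. Other probe sets, annotated to Vps25 as well as Ramp2, were not used, and none of their differences was called. The dimmer of them differed by -0.15 at 48 hr and 0.19 at 72 hr in Il10-/- mice, and by 0.03 and 0.13 in Il10+/+ mice. The brighter differed by -0.08 and -0.02 in Il10-/- mice, and by -0.04 and 0.0007 in Il10+/+ mice. Which of the genes they read was not tested. Of the 5 measured genes of adrenomedullin and its receptor, 1 fell in Il10-/- mice over the 3 times and none was called in Il10+/+ mice (1 had an unadjusted p under 0.05). Ramp1, which steers the same receptor toward CGRP, fell by 0.64 in Il10-/- mice (SE 0.13, adjusted p = 0.00421), and its difference in Il10+/+ mice was -0.36 (adjusted p = 0.145). Calcrl, the receptor itself, differed by -0.24 in Il10-/- mice (adjusted p = 0.153) and by -0.13 in Il10+/+ mice. Adm, the peptide, differed by 0.09 in Il10-/- mice (adjusted p = 0.883).

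Vwf (chr6:125552948-125686679) was the exception among the 10, with no lower level at 24 or 48 hr. Vwf in Il10-/- lungs read 11.50, 11.49, 11.30 and 11.39 in air, 11.50 and 11.53 after 24 hr of O3, 11.53, 11.80 and 11.53 after 48 hr, and 11.61, 11.55 and 11.29 after 72 hr. Vwf in Il10+/+ lungs read 11.51, 11.71, 11.36 and 11.33 in air, 11.66, 11.53 and 11.69 after 24 hr of O3, 11.75, 11.52 and 11.61 after 48 hr, and 11.35, 11.51 and 11.31 after 72 hr. The 24 and 48 hr arrays of Il10-/- mice all lay above the air arrays, by a very small margin at 24 hr, and the other groups overlapped with air. Its difference over both genotypes was 0.09 (95% interval -0.03 to 0.21, adjusted p = 0.32). Vwf is made by platelets' precursors as well as by endothelium. Of 12 other measured genes of Weibel-Palade bodies, the endothelial stores of von Willebrand factor, and of the hemostatic surface, 1 fell in each genotype over the 3 times. That gene was Thbd, the thrombin receptor thrombomodulin, which fell by 0.39 in Il10-/- mice (SE 0.079, adjusted p = 0.00334) and by 0.28 in Il10+/+ mice (SE 0.077, adjusted p = 0.0418). Selp, the P-selectin of the same granules, differed by 0.41 in Il10-/- mice (adjusted p = 0.138) and by 0.18 in Il10+/+ mice.

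Averaged over the 10 genes, each array was placed by its mean deviation from the gene means over the 25 arrays. The means in Il10-/- mice were 0.14 ± 0.03 in air (SD, n = 4), 0.08 and -0.04 on the arrays at 24 hr, -0.20 ± 0.16 at 48 hr and -0.20 ± 0.18 at 72 hr (n = 3 each). Those in Il10+/+ mice were 0.16 ± 0.08 in air (SD, n = 4), 0.14 ± 0.13 at 24 hr, -0.05 ± 0.03 at 48 hr and -0.10 ± 0.10 at 72 hr (n = 3 each). No 48 or 72 hr array of either genotype reached an air array of its genotype. The spread among O3 arrays of Il10-/- mice was wide, with replicate 1 at -0.03 at 48 hr and 0.005 at 72 hr while the other arrays of these times lay between -0.33 and -0.25. Those replicate 1 arrays were also the highest of their group for Cdh5, Kdr, Flt1 and Tie1 alike.

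**Figure D4:**
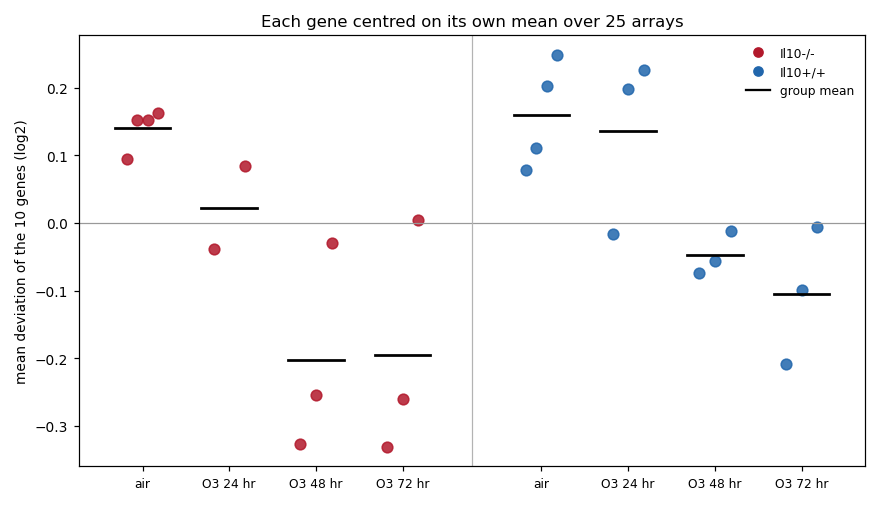
Mean deviation of the 10 genes on each of the 25 arrays, in log2 units from each gene's mean over the arrays, by exposure, with Il10-/- mice in red on the left and Il10+/+ mice in blue on the right. Points are arrays and bars group means. Air arrays lie between 0.08 and 0.25, and the lowest arrays, near -0.33, are at 48 and 72 hr in Il10-/- mice.

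The genes did not all move as a block. Of the 45 pairs of members, 39 correlated positively over the 25 arrays, with a median r of 0.47 (range -0.27 to 0.85), and within groups the median was 0.19 with 34 positive. The highest pair was Cdh5 and Tie1, at 0.85 over the arrays and 0.83 within groups, followed by Cdh5 and Kdr at 0.80 and 0.69. Pecam1 and Cldn5 correlated at 0.78 over the arrays and at 0.11 within groups, so they shared the difference between air and O3 more than the spread among replicates. The lowest pair was Vwf and Cldn5 at -0.27. These correlations are descriptions, since the arrays share exposure groups and the genes share arrays.

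No member was called between the genotypes. In air none was called between Il10-/- and Il10+/+ mice, where 0.00807% of all genes were called and 1 member had an unadjusted p under 0.05. That member was Pecam1, with 11.31 ± 0.08 in Il10-/- mice and 11.09 ± 0.14 in Il10+/+ mice (SD, n = 4 each), a difference of 0.22 (SE 0.083, adjusted p = 0.538) with no overlap of arrays. Over O3 none was called, where 0.637% of all genes were, and 9 of 10 were lower in Il10-/- than in Il10+/+ mice, with a median difference of -0.07 and 3 under an unadjusted p of 0.05. Cdh5 had the widest such gap, -0.29 (SE 0.13, adjusted p = 0.346). The genotypes' mean O3 responses were tested against each other directly, and none of the 10 differed, as none of all genes did (0%). The largest of these differences was that of Tie1, -0.35 (95% interval -0.84 to 0.14), and that of Pecam1 was -0.25 (95% interval -0.46 to -0.05, adjusted p = 1). Calls in Il10-/- mice and not in Il10+/+ mice are thus not shown to differ between the genotypes.

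Among genes outside the 10, those most like their mean over the 25 arrays were Ushbp1 (r = 0.902), Thra (0.881), Rassf3 (0.881), Acer2 (0.878), Pmp22 (0.876), Scube2 (0.874), Bmp6 (0.872) and Clstn1 (0.869). They were picked for this likeness, so their differences are no separate support. Scube2, a secreted and membrane-bound EGF-domain protein, had the largest difference of the 8, -0.98 in Il10-/- mice (SE 0.20) and -0.76 in Il10+/+ mice (SE 0.19) over the 3 times. Clstn1, a calsyntenin of the cadherin superfamily, differed by -0.40 in Il10-/- mice and by -0.34 in Il10+/+ mice. Pmp22, a membrane protein best known from peripheral myelin, differed by -0.27 in Il10-/- mice and by -0.17 in Il10+/+ mice.

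Other genes of blood vessel endothelium also stood lower as lists. Of 26 further pan-endothelial genes measured, 5 fell over the 3 times in Il10-/- mice and 1 fell in Il10+/+ mice, with medians of -0.26 and -0.18 in those mice, and 11 of 26 fell with the genotypes averaged. Over the 3 times, 2.28% of all genes fell and 5.27% rose in Il10-/- mice. In Il10+/+ mice 0.92% fell and 2.74% rose, and 5.72% fell with the genotypes averaged. These shares stand beside the counts of every list here. In Il10-/- mice Gng11, a G protein subunit, fell by 0.48 (SE 0.12, adjusted p = 0.0141), Icam2, an adhesion molecule of resting endothelium, fell by 0.41 (SE 0.10, adjusted p = 0.0181), and Ushbp1 fell by 0.42 (SE 0.11, adjusted p = 0.0178). The other members that fell in Il10-/- mice, named after their values were seen, were Cd93 (by 0.30) and Cav1, the caveolar coat protein (by 0.29). In Il10+/+ mice Palmd fell by 0.37 (SE 0.098, adjusted p = 0.0351). The mean of this list correlated with that of the 10 genes at r = 0.904 over the arrays and 0.674 within groups.

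Of 22 measured endothelial transcription factors, in Il10-/- mice 3 fell and in Il10+/+ mice 1, and 20 of 22 were negative in each genotype, with medians of -0.16 in Il10-/- mice and -0.18 in Il10+/+ mice. Lmo2, a partner of SCL and GATA factors in endothelial and blood cells, fell by 0.48 in Il10-/- mice (SE 0.12, adjusted p = 0.0212) and by 0.55 in Il10+/+ mice (SE 0.12, adjusted p = 0.0108). Mef2c fell by 0.57 in Il10-/- mice (SE 0.14, adjusted p = 0.0168), with a difference of -0.36 in Il10+/+ mice (adjusted p = 0.18). Hey1, a target of Notch in arterial endothelium, fell by 0.51 in Il10-/- mice (SE 0.13, adjusted p = 0.0161), with a difference of -0.34 in Il10+/+ mice (adjusted p = 0.153).

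By vessel type, capillary genes had a lower median than arterial and venous or lymphatic genes. Of 14 lung capillary genes, 1 fell in Il10-/- mice, with a median of -0.34, and none was called in Il10+/+ mice (3 under an unadjusted p of 0.05), with a median of -0.21. The gene was Kitl, the ligand of KIT, which fell by 0.49 in Il10-/- mice (SE 0.15, adjusted p = 0.0423). Of 21 arterial and venous genes, 2 fell and 1 rose in Il10-/- mice, with a median of -0.21, and none was called in Il10+/+ mice (8 under an unadjusted p of 0.05), with a median of -0.10. Ltbp4, which binds latent TGF-beta in elastic matrix, fell by 0.71 in Il10-/- mice (SE 0.14, adjusted p = 0.00216) and Bst1, an ADP-ribosyl cyclase, rose by 0.53 (SE 0.14, adjusted p = 0.0189). Hey1 was the other gene that fell. None of 6 lymphatic genes was called in either genotype (0 under an unadjusted p of 0.05 in Il10-/- mice and 1 in Il10+/+ mice), and none of 13 junction partners was (3 in Il10-/- mice and 1 in Il10+/+ mice).

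Genes of activated endothelium went the other way. Of 18 measured, 6 rose and none fell in Il10-/- mice, with a median of 0.35, and in Il10+/+ mice 3 rose and 1 fell, with a median of 0.20. Lcn2, an iron-siderophore binding protein, rose by 1.78 in Il10-/- mice (SE 0.17, adjusted p = 1.68e-06) and by 1.05 in Il10+/+ mice (SE 0.16, adjusted p = 0.000544). The chemokine gene Ccl2 rose by 0.72 in Il10-/- mice (SE 0.19, adjusted p = 0.0199) and by 0.81 in Il10+/+ mice (SE 0.18, adjusted p = 0.0126). Il6 rose by 0.84 in Il10-/- mice (SE 0.18, adjusted p = 0.0061), and its difference in Il10+/+ mice was 0.61 (adjusted p = 0.061). Cxcl1 rose by 0.82 in Il10-/- mice (SE 0.21, adjusted p = 0.019), with a difference of 0.29 in Il10+/+ mice. Icam1, the adhesion molecule that leukocytes bind, was named after its values were seen and rose by 0.28 in Il10-/- mice (adjusted p = 0.0379) and by 0.33 in Il10+/+ mice (adjusted p = 0.0209). Pgf and, as the gene that fell in Il10+/+ mice, Angpt2 are the ones already described. Epithelial cells and leukocytes make Lcn2, Il6, Cxcl1 and Ccl2 too.

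Markers of other lung cells were read in the same way, and their part in the members' differences was not tested. Of 17 measured genes of dividing cells, 16 rose over the 3 times in Il10-/- mice and 14 rose in Il10+/+ mice, with medians of 1.27 in Il10-/- mice and 1.24 in Il10+/+ mice. Their mean level was 5.89 to 6.23 in air, 5.63 to 6.71 at 24 hr, 7.53 to 7.98 at 48 hr and 7.57 to 7.71 at 72 hr in Il10-/- mice. In Il10+/+ mice it was 6.07 to 6.28 in air, 6.03 to 6.37 at 24 hr, 7.36 to 7.84 at 48 hr and 7.87 to 7.99 at 72 hr, so the groups at which the endothelial genes were lower were those at which dividing-cell genes were higher. The mean of the dividing-cell genes correlated with that of the 10 at r = -0.743 over the arrays and at 0.105 within groups. The mean of the alveolar type 1 markers tracked that of the endothelial genes (r = 0.791 over the arrays and 0.732 within groups). Of the 8 alveolar type 1 markers, 2 fell in Il10-/- mice (Igfbp2 by 0.90, adjusted p = 0.0178, and Cav1, which endothelium shares) and none was called in Il10+/+ mice (1 under an unadjusted p of 0.05).

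The remaining marker lists held few calls. Of 9 alveolar type 2 markers 1 rose in Il10-/- mice (Sftpd by 0.32, adjusted p = 0.00561), with medians of -0.01 in Il10-/- mice and 0.08 in Il10+/+ mice. None of 10 fibroblast markers was called (3 in Il10-/- mice and 2 in Il10+/+ mice under an unadjusted p of 0.05). Yet their medians, -0.33 in Il10-/- mice and -0.24 in Il10+/+ mice, were lower than those of the 10 endothelial genes, -0.28 and -0.17. Platelet markers, of which 9 were measured and none was called, had medians of -0.27 in Il10-/- mice and -0.19 in Il10+/+ mice (0 and 1 under an unadjusted p of 0.05), with a mean level of 6.23 to 6.56 at 72 hr of O3 and 6.59 to 7.19 in air in Il10-/- mice. Of 10 neutrophil markers 1 rose in Il10-/- mice (Il1r2 by 0.89, adjusted p = 8.61e-05), and their medians were 0.47 in Il10-/- mice and -0.46 in Il10+/+ mice. Of 8 general leukocyte genes 1 rose in Il10-/- mice (Laptm5 by 0.47, adjusted p = 0.00787) and of 9 macrophage markers 1 (Marco by 0.96, adjusted p = 0.0464). Of 9 club cell markers 2 rose in Il10-/- mice and 1 in Il10+/+ mice. None of the smooth muscle, ciliated, T cell, B cell or red blood cell markers was called in either genotype, with medians between -0.41 and -0.06 in Il10-/- mice and between -0.59 and 0.13 in Il10+/+ mice.

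**Figure D5:**
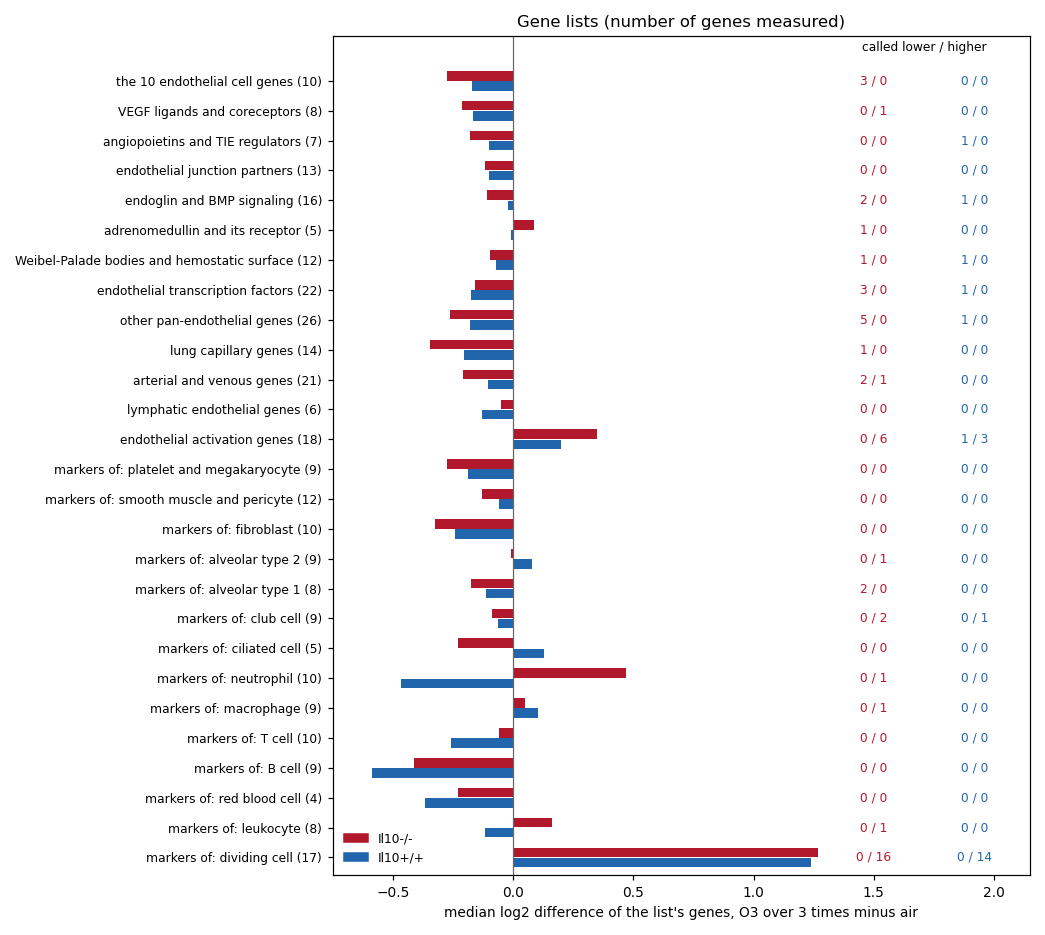
Median log2 difference of O3 (over 24, 48 and 72 hr) minus air for each gene list, with bars for Il10-/- mice and Il10+/+ mice and, beside each, the number of measured genes called lower and higher. The 10 endothelial genes sit at -0.28 in Il10-/- mice and -0.17 in Il10+/+ mice, the capillary list is lower at -0.34 and -0.21, and the dividing-cell list stands far to the other side at 1.27 and 1.24.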

How the data were processed

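The authors made the deposited log2 expression values (22690 probe sets, 26 arrays) in RMAExpress by Robust Multichip Average, whose version is not given in the sources used here, and they were used as deposited. RMA includes quantile normalization, so a change shared by most genes would not show. The number of arrays limits the precision. Genes were named from the platform annotation. Of the probe sets, 20393 had 1 symbol, 691 had several and 1606 had none, and the brightest set was used for the 4958 genes with more than 1.

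A single limma fit (version 3.58.1, R 4.3.3) held 8 group means with empirical Bayes moderation, its tests were two-sided, and p-values were adjusted by Benjamini-Hochberg over 12394 genes at a threshold of 0.05. Each O3 time, and their mean, was set against air, by genotype and with the genotypes averaged, as were the genotypes in air and over O3, and the genotype difference in the O3 response. The left-out array follows the study's exclusion of 1 array of that group.

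Genes named are the 10 members, up to 4 per list past the threshold in either genotype's mean O3 response, and the 8 non-members most like the members' mean. Vegfa, Calcrl, Adm, Selp, Cd93, Cav1 and Icam1 fall outside this rule and were named after their values were seen. Members, lists and the array left out were chosen with earlier results of these data known. Promoters and positions are from RefSeq tables of GRCm38.p6. The steps were tested on simulated data. Alternatives were all 26 arrays, same-time air, the replicate number as a block, array weights, the letter c in 5 source names as a covariate, other probe set rules, other filters, only the arrays compared, the methods' two-way analysis of variance, and each array left out. Figures were drawn with matplotlib 3.10.9.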

Additional observations from a re-analysis of the deposited data

Results flagged for a closer look

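In groups of 4 air arrays, a single array stood apart from the other 3 in 4 of the 20 gene-by-genotype groups tested by Dixon's ratio at its 95% limit, where chance gives about 1 in 20 such groups. Kdr read 10.80 on Il10-/- air 24 hr replicate 2, above the other air arrays of the genotype. Kdr read 10.60 on Il10+/+ air 48 hr replicate 2, below the others. Eng read 11.47 on Il10-/- air 48 hr replicate 2, below the others. Ramp2 read 11.64 on Il10+/+ air 24 hr replicate 2, below the others.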

How the results depend on the processing

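With all 26 arrays no member was called in any comparison, and the count of members called was 0 at 48 hr, at 72 hr and over the 3 times in Il10-/- mice and over both genotypes. The members' medians were then -1.01 at 24 hr and -0.60 over the 3 times in Il10-/- mice, -0.39 over both genotypes, -0.39 between genotypes over O3 and -0.43 for the genotype difference in response. At 72 hr in Il10-/- mice the count was 0 with air of the same exposure time and 1 with the second brightest probe set. Over the 3 times in Il10-/- mice it was 1 with only the arrays compared and 1 with array weights. Array weights also gave 2 members at 48 hr, 4 at 72 hr and 2 over the 3 times in Il10+/+ mice, and 8 over both genotypes. The share of all genes called with array weights is not given here, so these counts are not a result about the members. Over the 8 groups, the effect of exposure was called for 6 members by limma's F test (Pecam1, Flt1, Tek, Tie1, Cldn5 and Ramp2). The methods' two-way analysis of variance gave the same 6 for exposure at an unadjusted p under 0.01 and 5 of them after adjustment, Flt1 missing (adjusted p = 0.0555), so Ramp2 (adjusted p = 0.0221) was called for exposure and in none of the comparisons of O3 with air. It gave 1 member for genotype at an unadjusted p under 0.01, Tek, and 0 after adjustment. The shares of all genes called by the F test and the analysis of variance are not given here, so these counts are a description only. The cause of these shifts was not tested.

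With 1 array left out in turn, the counts ranged from 2 to 4 at 48 hr, 1 to 3 at 72 hr and 1 to 4 over the 3 times in Il10-/- mice, 0 to 1 at 48 and at 72 hr in Il10+/+ mice, and 4 to 8 over both genotypes. The value over the 3 times in Il10-/- mice was 1 without Il10-/- air 24 hr replicate 1 or air 48 hr replicate 2. In Il10+/+ mice the 1 at 48 hr came without air 48 hr replicate 1 (Pecam1) and at 72 hr without air 24 hr replicate 2 (Ramp2), and the 8 came without Il10-/- O3 24 hr replicate 1. Counts stayed at 0 for 24 hr in each genotype, the 3 times in Il10+/+ mice and the genotype comparisons. In Il10-/- mice the members' medians ranged from -0.23 to -0.054 at 24 hr, -0.48 to -0.24 at 48 hr, -0.42 to -0.26 at 72 hr and -0.31 to -0.24 over the 3 times. In Il10+/+ mice they ranged from -0.08 to 0.03, -0.26 to -0.18, -0.35 to -0.22 and -0.21 to -0.16 in the same order, and over both genotypes from -0.25 to -0.21. Between genotypes they ranged from -0.05 to 0.03 in air, -0.12 to -0.04 over O3 and -0.14 to -0.04 for the response.

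With the replicate number as a block the counts were 4 at 48 hr (Eng added, -0.46, adjusted p = 0.0417), 3 at 72 hr (Cldn5 added, adjusted p = 0.0408) and 3 over the 3 times in Il10-/- mice, 5 over both genotypes, and unchanged at 0 elsewhere. Arrays were also correlated across genes by their deviations from the mean of their group of genotype, exposure and time. Same-numbered arrays of different groups then had a median r of 0.104, with 50 of 96 pairs over 0.1. For different-numbered arrays the median was -0.056, with 28 of 184 pairs over 0.1. Replicate 1 had the highest members' mean in 8 of the 10 groups of genotype, exposure and time. The labels give no shared litter, batch or day for a number, and not every same-numbered pair was over 0.1, so the numbers were not taken as pairing the arrays, and whether arrays of 1 number share a source was not tested. Of the 107 member differences not called, 26 changed sign and 17 were called under at least 1 other setting that kept every array of the comparison or added the left-out one. With 1 array left out in turn, 23 of the 107 changed sign and 11 were called in at least 1 set.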

Other observations

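The left-out array, Il10-/- O3 24 hr replicate 2, had the lowest value of all 26 arrays for each of the 10 endothelial genes, with a mean deviation of -2.74 on the log2 scale. Tek read 7.01 there, against 10.62 to 11.51 on the other 25 arrays. Pecam1 read 8.78, Cdh5 7.47, Tie1 8.04 and Cldn5 8.89 on it. The mean of the alveolar type 1 markers was 6.61 on that array, against 11.55 to 12.002 on the others, and that of the alveolar type 2 markers was 7.29, so the markers of lung were low there too. Markers of blood and lymphoid cells were high on the same array. The B cell mean was 10.75, against 6.07 to 8.11 on the other 25 arrays, the T cell mean 9.16, against 5.70 to 6.61, and the red blood cell mean 9.36, against 5.68 to 7.02. The mean of the leukocyte genes was 12.04, against 9.86 to 10.77, that of the dividing-cell genes 9.94, against 5.63 to 7.99, and that of the platelet genes 8.48, against 6.16 to 7.64.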
